A study of Mus musculus with 9 samples.

Results

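The genes described here encode the main components of the vascular basement membrane: the type IV collagen chains Col4a1 and Col4a2, the laminin chains Lama4, Lama5, Lamb1, Lamb2 and Lamc1, the nidogens Nid1 and Nid2, and Hspg2, the heparan sulfate proteoglycan perlecan. They were taken by symbol, and each of the 10 symbols matched 1 row of the 52183 genes in the deposited table. RNA-seq was run on endothelial cells that had been sorted from mouse long bone marrow after in vivo labelling with an antibody against VE-cadherin, which sits at endothelial junctions. The 9 libraries form 3 groups of 3: young controls at 3 months, aged controls at 18 months, and aged mice, also at 18 months, with the genotype label Thbs1 knockout. The labels give no strain, no construct and no sex, and do not tie each library to its own mouse, so the p-values reflect spread between these libraries alone, which may be technical.

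A basement membrane is a thin sheet of matrix on which endothelial cells rest. Laminins are heterotrimers of an alpha, a beta and a gamma chain that assemble first, on the cell surface, and type IV collagen forms a second, covalently crosslinked network. Nidogens and perlecan bridge the laminin and collagen networks. Endothelial cells make laminins with the alpha chains of Lama4 or Lama5. The sinusoids of bone marrow are known for a thin and discontinuous basement membrane.

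Levels are FPKM, which counts fragments relative to gene length and library depth, as the authors deposited them. The recovered depth was 22160000 to 24570000 fragments in the control libraries and 27250000 to 30420000 in those labelled knockout. All 10 genes passed the filter on low values, an average of 1 FPKM or more across libraries, as did 11796 genes in all. Thbs1, the gene named by the label, read 25.63, 19.45 and 19.84 FPKM under the knockout label, 0.67, 0.82 and 1.17 FPKM among aged controls and 4.55, 3.89 and 4.18 FPKM among young ones, so it goes against its label. Directions below are therefore those of libraries labelled knockout, not of an established loss of Thbs1. The 10 endothelial markers were all detected, with Cdh5, the gene for VE-cadherin, at 153.15 to 176.54 FPKM. Of the 8 leukocyte markers, Ptprc and Cd3e were at most 0.13 FPKM, while Jchain, S100a8 and Lyz2 reached 76.81, 74.91 and 47.50 FPKM. Aged control replicate 1 held the lowest value of its group for 9 of the 10 basement membrane genes, all but Hspg2. Replicate 2 labelled knockout held the lowest value of its group for 8, all but Lama5 and Lamb2, and results are given with and without these libraries.

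**Figure D1:**
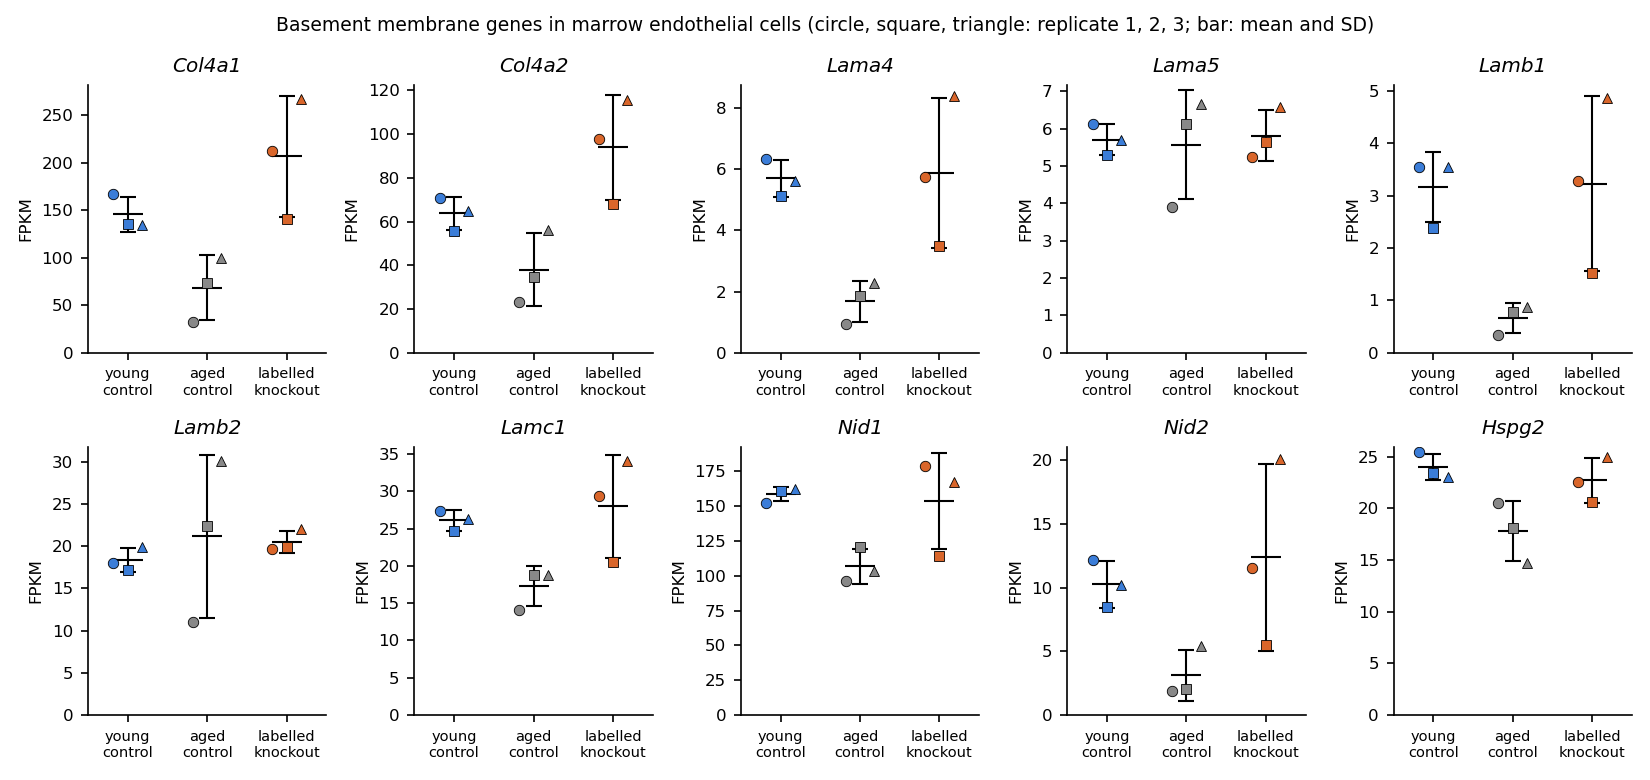
FPKM (vertical axes from 0) of the 10 basement membrane genes in each library of the 3 groups, with replicates 1, 2 and 3 as circle, square and triangle and the mean and SD as bars. Lama4 and Lamb1 in the aged controls lie below every library of the other groups, while Lama5 and Lamb2 overlap across all 3 groups.

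In the aged controls the laminin chains Lama4 and Lamb1 fell, to 0.296 and 0.210 times their young mean level, and in the libraries labelled knockout Lama4, Lamb1, Col4a1 and Col4a2 rose to 3.48, 4.86, 3.01 and 2.47 times the mean of the aged controls. These were the calls of limma at a Benjamini-Hochberg adjusted p under 0.05 over all tested genes. In the comparison of aged with young controls, 2 of the 10 genes were called lower and none higher, where 2.8% of all tested genes were called lower and 1.2% higher (330 and 141 genes). That split was 200 and 215 after median-ratio scaling, 199 and 160 after quantile normalization, and 164 and 153 after removal of trends with length and GC content. At an unadjusted p under 0.05, 8 of the 10 passed, beside 27.7% of all tested genes. Between labelled knockout and aged control, 4 of the 10 were called higher and none lower, where 2.78% of all tested genes were called higher and 2.01% lower. Here too 8 of the 10 had an unadjusted p under 0.05, beside 24.1% of all tested genes. Both comparisons use the same aged controls, so a low value there enters both.

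Differences below are in log2(FPKM + 1), a scale that understates the change of genes at low levels. With age, 9 of the 10 differences were negative, with a median of -0.70 beside -0.05 over all tested genes. For labelled knockout against aged control all 10 were positive, with a median of 0.96 beside 0.00 over all tested genes. Of all tested genes 44.0% had a positive difference with age and 50.4% for labelled knockout against aged control. The groups did not overlap for 7 of the 10 in each case: lower in the aged controls, where 21.8% of tested genes lay wholly below the young libraries, and higher in the libraries labelled knockout, where 12.1% lay wholly above the aged controls. The 10 genes have exon lengths of 5174 to 14307 bases. The 3894 tested genes in that range of length had a median of -0.16 with age and 0.10 for labelled knockout against aged control, so long genes as a whole moved in the same directions by a smaller amount. After each library's trend with length and GC content was removed, Lama4 and Lamb1 were still called lower with age, and the same 4 genes and Nid2 were called higher in the libraries labelled knockout.

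**Figure D2:**
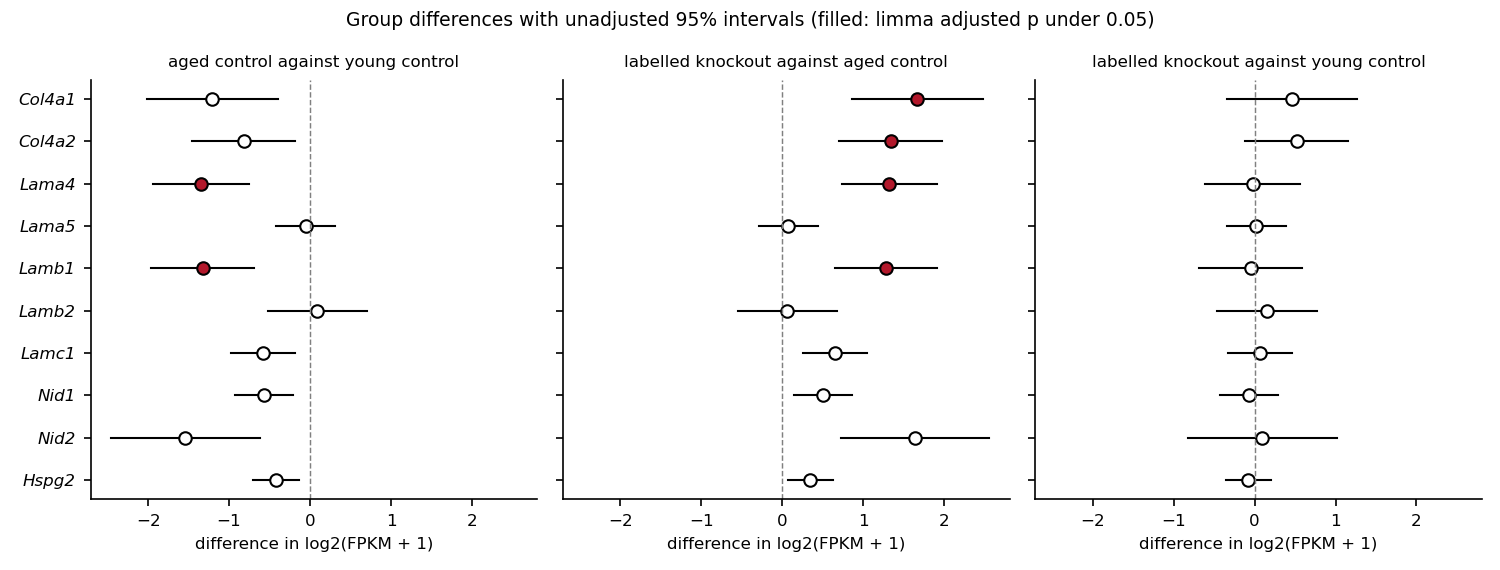
Difference in log2(FPKM + 1) (horizontal axes) for each gene in the 3 comparisons, with unadjusted 95% intervals from limma as lines. Filled points passed an adjusted p under 0.05: Lama4 and Lamb1 in the first comparison, Col4a1, Col4a2, Lama4 and Lamb1 in the second, and none in the last.

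Of the laminin alpha chains only Lama4 was called. The genes are Lama4 (ENSMUSG00000019846, GRCm38 chromosome 10, 38965515 to 39110188) and Lama5 (ENSMUSG00000015647, chromosome 2, 180176373 to 180225859). Lama4 read 6.34, 5.14 and 5.62 FPKM across the young replicates, 0.95, 1.84 and 2.27 FPKM across the aged control replicates, and 5.74, 3.48 and 8.40 FPKM across those labelled knockout. Every aged control lay below every other library, and replicate 2 labelled knockout was the lowest of the remaining 6. The difference was -1.35 ± 0.263 with age (limma log2 difference ± SE, adjusted p = 0.0362) and 1.32 ± 0.263 for labelled knockout against aged control (adjusted p = 0.0250). Lama5 read 6.12, 5.29 and 5.70 FPKM across the young replicates, 3.91, 6.13 and 6.66 FPKM across the aged control replicates, and 5.24, 5.63 and 6.57 FPKM across those labelled knockout. The Lama5 groups overlapped throughout. Its log2 difference with age was -0.05, with an unadjusted 95% interval of -0.42 to 0.31, and for labelled knockout against aged control 0.07, with an interval of -0.29 to 0.44.

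Of the beta chains only Lamb1 was called. Lamb1 (ENSMUSG00000002900, chromosome 12, 31265234 to 31329644) read 3.54, 2.39 and 3.55 FPKM across the young replicates, 0.33, 0.78 and 0.88 FPKM across the aged control replicates, and 3.28, 1.53 and 4.87 FPKM across those labelled knockout. No aged control reached 1 FPKM and no other library was below it. The difference was -1.33 ± 0.283 with age (limma log2 difference ± SE, adjusted p = 0.0402) and 1.28 ± 0.283 for labelled knockout against aged control (adjusted p = 0.0356). Lamb1 rests on the fewest fragments of the 10 genes, about 73 in aged control replicate 1 and 1316 in replicate 3 labelled knockout. Lamb2 (ENSMUSG00000052911, chromosome 9, 108479736 to 108490530) read 18.00, 17.20 and 19.91 FPKM across the young replicates, 10.97, 22.45 and 30.10 FPKM across the aged control replicates, and 19.66, 19.93 and 22.05 FPKM across those labelled knockout. The aged controls held both the lowest and the highest Lamb2 value of the 9 libraries. Its log2 difference was 0.09 with age (95% interval -0.52 to 0.71) and 0.06 for labelled knockout against aged control (-0.55 to 0.68).

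Stretches upstream of Lamb1 and Lamb2 are shown because only Lamb1 of this pair was called and their upstream letters differ in composition. Both are from RefSeq on GRCm38.p6, plus strand, and end before the first annotated base of the gene: chr12:31265043-31265145 for Lamb1 and chr9:108479612-108479735 for Lamb2. The Lamb2 stretch reaches the base before its gene's start at 108479736, while the Lamb1 stretch stops short of its gene's start at 31265234. Capitals mark a match to CCAAT, read on both strands.
Lamb1: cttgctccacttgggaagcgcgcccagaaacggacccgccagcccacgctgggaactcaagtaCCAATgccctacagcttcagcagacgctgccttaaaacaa
Lamb2: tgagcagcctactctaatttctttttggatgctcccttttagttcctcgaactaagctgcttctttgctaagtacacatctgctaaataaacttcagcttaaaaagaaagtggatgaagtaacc
RefSeq windows of 300 bases around the start were matched by symbol for 7 of the 10 genes, which leaves Lama4, Lamc1 and Nid2. The window of Lamb2 had 44.0% G and C and 4 CG pairs, against 63.7% and 18 for Lamb1, and 72.7% and 24 for Lama5, which like Lamb2 was not called. The median over 32817 windows was 52.7% and 7 CG pairs. GGGCGG or its reverse complement occurred in 6 of the 7 windows, all but Lamb2, and in 35.6% of all windows. CCAAT or its reverse complement occurred in 4, those of Col4a1, Col4a2, Lamb1 and Nid1, and in 37.4% of all. TATAAA or its reverse complement was in none of the 7 and in 13.6% of all windows. The windows of Col4a1 and Col4a2 overlap, and the 1 GGGCGG match of the Col4a1 window lies in both. These counts are therefore not of separate stretches. A match describes these letters and does not show a bound site.

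The gamma chain Lamc1 (ENSMUSG00000026478, chromosome 1, 153218922 to 153332786), which is shared by laminins of both alpha chains, read 27.38, 24.67 and 26.31 FPKM across the young replicates, 14.15, 18.85 and 18.75 FPKM across the aged control replicates, and 29.44, 20.47 and 34.13 FPKM across those labelled knockout. Its groups did not overlap in either comparison with the aged controls. The log2 differences of -0.58 with age (limma adjusted p = 0.0810) and 0.65 for labelled knockout against aged control (adjusted p = 0.0651) did not pass.

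Ratios within a library do not depend on how that library is scaled. The ratio of Lama4 to Lama5 was 1.04, 0.972 and 0.986 across the young replicates, 0.243, 0.30 and 0.341 across the aged control replicates, and 1.10, 0.618 and 1.28 across those labelled knockout. The ratio of Lamb1 to Lamb2 was 0.197, 0.139 and 0.178, then 0.0301, 0.0347 and 0.0292, then 0.167, 0.0768 and 0.221 in the same order of groups. For both ratios the 3 aged controls lay below all other libraries. Their mean log2 ratio differed from that of the young controls by -1.77 for Lama4 to Lama5 and by -2.44 for Lamb1 to Lamb2, and the libraries labelled knockout differed from the aged controls by 1.71 and 2.18. For each of these 4 differences p was 0.1 by exact permutation, two-sided, the smallest value that 3 against 3 libraries allow, and 0.24 after Benjamini-Hochberg adjustment over the 12 tests of ratios. The change of a ratio does not depend on gene length, but its level does: the merged exons of Lama4 in the GENCODE M21 annotation cover 12068 bases and its longest transcript 6046, against 11388 bases for both in Lama5. A Lama4 level computed on its longest transcript would be 2.00 times as high, and a Lamb1 level 1.72 times.

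**Figure D3:**
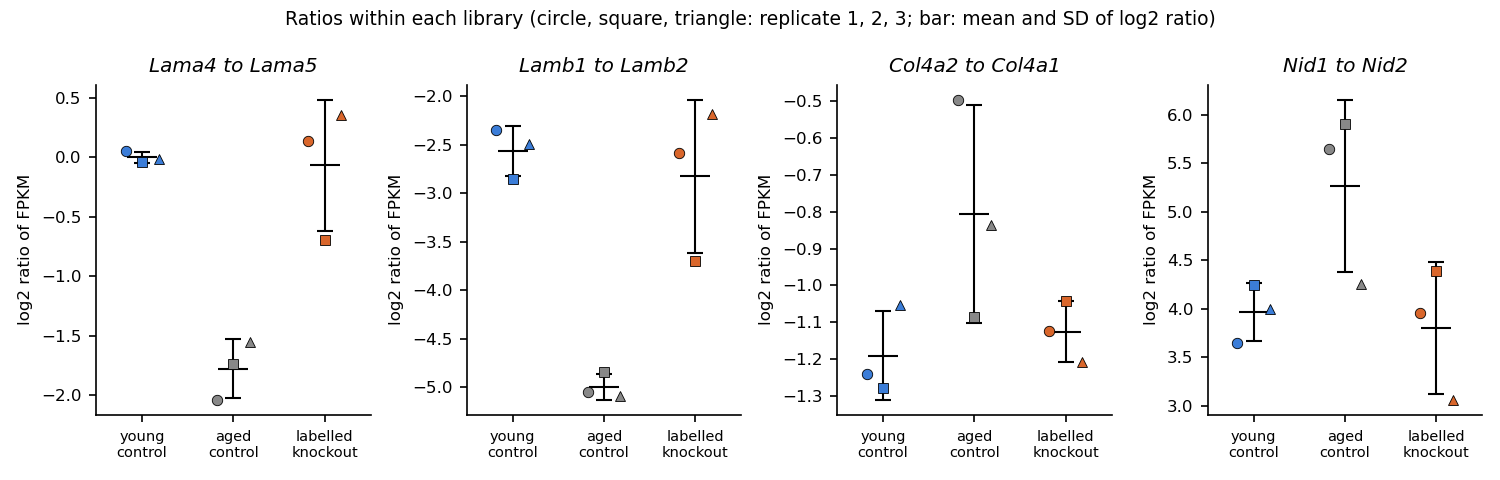
Log2 ratio of FPKM (vertical axes) for pairs of related chains within each library, by group, with replicates 1, 2 and 3 as circle, square and triangle and the mean and SD as bars. The aged controls lie below all other libraries for Lama4 to Lama5 and for Lamb1 to Lamb2, and overlap the other groups for Col4a2 to Col4a1. For Nid1 to Nid2 they lie above the young controls, narrowly in replicate 3, which is within the range of the libraries labelled knockout.

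The type IV collagen chains, which together form the common collagen trimer of vascular basement membranes, were higher in the libraries labelled knockout than in the aged controls. Col4a1 (ENSMUSG00000031502, chromosome 8, 11198423 to 11312826) read 167.43, 135.48 and 134.25 FPKM across the young replicates, 32.69, 73.45 and 99.98 FPKM across the aged control replicates, and 212.82, 140.60 and 267.50 FPKM across those labelled knockout. The aged controls were below all other libraries and spread over a wide range, with replicate 1 the lowest. The rise from the aged controls was 1.67 ± 0.361 (limma log2 difference ± SE, adjusted p = 0.0317), and the difference of -1.21 ± 0.361 with age did not pass (adjusted p = 0.0791). Col4a2 (ENSMUSG00000031503, chromosome 8, 11312805 to 11449287) read 70.85, 55.87 and 64.71 FPKM across the young replicates, 23.19, 34.60 and 56.05 FPKM across the aged control replicates, and 97.62, 68.23 and 115.71 FPKM across those labelled knockout. Aged control replicate 3 just exceeded young control replicate 2, and all libraries labelled knockout were above the aged controls. The rise was 1.34 ± 0.285 (limma adjusted p = 0.0298), and the difference with age was -0.82 ± 0.285 (adjusted p = 0.109).

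Col4a1 and Col4a2 are read from opposite strands of the same locus, and their annotated starts overlap. The shared stretch is shown because both neighbours were called higher in the libraries labelled knockout. It covers chr8:11312805-11312826 on the plus strand of GRCm38.p6 (RefSeq), from the first base of Col4a2 to that of Col4a1, and lies in the first exon of both. Capitals mark a GGGCGG match.
Col4a1 and Col4a2 shared start: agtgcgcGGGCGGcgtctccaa
The ratio of Col4a2 to Col4a1 was 0.423, 0.412 and 0.482 across the young replicates, 0.709, 0.471 and 0.561 across the aged control replicates, and 0.459, 0.485 and 0.433 across those labelled knockout. These groups overlapped, and no difference between them passed (two-sided exact permutation p = 0.2 to 0.5, adjusted p = 0.3 to 0.667). The highest ratio was that of aged control replicate 1, the library with the lowest level of both chains.

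The nidogens differed in level and in spread. Nid1 (ENSMUSG00000005397, chromosome 13, 13437551 to 13512269) was the most abundant of the 10 genes in both control groups, at 152.56, 161.20 and 162.21 FPKM in the young controls and 96.33, 120.88 and 103.29 FPKM in the aged controls. In the libraries labelled knockout it was at 178.80, 114.48 and 167.51 FPKM, where replicate 2 lay among the aged controls. Nid2 (ENSMUSG00000021806, chromosome 14, 19751265 to 19811787) read 12.16, 8.48 and 10.18 FPKM across the young replicates, 1.92, 2.02 and 5.42 FPKM across the aged control replicates, and 11.53, 5.47 and 20.10 FPKM across those labelled knockout. The young and aged groups of both nidogens did not overlap, and Nid2 in replicate 2 labelled knockout was 5.47 FPKM beside 5.42 FPKM in aged control replicate 3. The log2 differences for Nid2 were -1.54 with age and 1.64 for labelled knockout against aged control, and neither passed (limma adjusted p = 0.0651 and 0.0524). For Nid1 they were -0.57 and 0.50 (limma adjusted p = 0.0698 and 0.0990). The ratio of Nid1 to Nid2 was 12.5 to 19.0 in the young controls, 19.1 to 59.8 in the aged controls and 8.33 to 20.9 in the libraries labelled knockout (exact permutation p = 0.1, 0.2 and 0.8 for aged against young, labelled knockout against aged, and labelled knockout against young, with adjusted p = 0.24, 0.3 and 0.873).

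Hspg2 (ENSMUSG00000028763, chromosome 4, 137468769 to 137570630) had the smallest standard error of the 10 genes, 0.125 on the log2 scale. It read 25.42, 23.46 and 23.06 FPKM across the young replicates, 20.53, 18.13 and 14.73 FPKM across the aged control replicates, and 22.55, 20.65 and 25.00 FPKM across those labelled knockout. The aged controls were below all other libraries, by a narrow margin from replicate 2 labelled knockout, and aged control replicate 1 was here the highest of its group. The log2 differences of -0.42 with age and 0.34 for labelled knockout against aged control did not pass (limma adjusted p = 0.0778 and 0.135).

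Between the libraries labelled knockout and the young controls, which differ in both age and labelled genotype, all 10 genes overlapped, where 22.4% of tested genes did not. limma called none of the 10, and limma voom on recovered fragments also called none. With array weights limma called Col4a2 higher (log2 difference 0.75, adjusted p = 0.0329), where 227 of all tested genes were called higher. In the fit without weights none of the 10 passed an unadjusted p under 0.05, beside 9.27% of all tested genes. At that share none of 10 is no result about these genes. Of all tested genes 0.127% were called lower and 0.0848% higher. The largest of the 10 differences were 0.52 for Col4a2 (95% interval -0.11 to 1.16) and 0.46 for Col4a1 (-0.34 to 1.27). The difference was -0.02 for Lama4 (-0.61 to 0.56) and -0.05 for Lamb1 (-0.68 to 0.59), so these intervals hold changes of moderate size in either direction.

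The order of levels followed the same lines. In the young controls Nid1 (158.7 ± 5.30 FPKM, SD, n = 3) and Col4a1 (145.7 ± 18.8) led, followed by Col4a2 (63.8 ± 7.53), Lamc1 (26.1 ± 1.36), Hspg2 (24.0 ± 1.26), Lamb2 (18.4 ± 1.39), Nid2 (10.3 ± 1.84), Lama5 (5.70 ± 0.415), Lama4 (5.70 ± 0.604) and Lamb1 (3.16 ± 0.667). The libraries of Nid1 and Col4a1, of Lamc1 and Hspg2, and of Lama5 and Lama4 overlapped in that group. The aged controls began with Nid1 (106.8 ± 12.7), Col4a1 (68.7 ± 33.9) and Col4a2 (37.9 ± 16.7), each overlapping the next. Lamb2 (21.2 ± 9.63), Hspg2 (17.8 ± 2.91) and Lamc1 (17.25 ± 2.69) came next and overlapped, and the last places were Lama5 (5.57 ± 1.46), Nid2 (3.12 ± 1.99), Lama4 (1.69 ± 0.673) and Lamb1 (0.663 ± 0.293). In the libraries labelled knockout Col4a1 (207.0 ± 63.7) was above Nid1 (153.6 ± 34.3) in each replicate, although the ranges of the 2 genes overlapped. Col4a2 (93.9 ± 24.0), Lamc1 (28.0 ± 6.94), Hspg2 (22.7 ± 2.18), Lamb2 (20.5 ± 1.31), Nid2 (12.4 ± 7.35), Lama4 (5.87 ± 2.46), Lama5 (5.81 ± 0.684) and Lamb1 (3.23 ± 1.67) followed. These levels are per length of merged exons, whose use by the authors is not stated.

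Every call of these 10 genes was lost when certain single libraries were left out. With any of the 3 young or 3 aged controls left out, limma called none of the 10 genes with age. Over all tested genes 5 to 225 were called lower in those fits. Lama4 and Lamb1 were called with replicate 1 or 3 labelled knockout left out. Without replicate 2 labelled knockout, Lamc1, Nid1 and Nid2 were called lower with age as well. In the comparison of labelled knockout with aged control, none was called without replicate 1 or 3 labelled knockout, 1 without aged control replicate 1 (Col4a1) or 2 (Lama4) or without any single young control (Lama4), 4 without aged control replicate 3 (Col4a1, Col4a2, Lama4 and Nid2), and 7 without replicate 2 labelled knockout. Without aged control replicate 1 and replicate 2 labelled knockout together, a fit added after the data were seen, 6 genes were lower with age and 8 higher in the libraries labelled knockout. A fit of the compared groups alone called 5 genes lower with age, and none in the comparison of labelled knockout with aged control. Over all tested genes, 330 were lower with age and 328 higher under the knockout label with all 9 libraries. Without replicate 2 labelled knockout these counts were 673 and 596. They were 836 and 633 with the 2 libraries out together, and 458 and 112 in fits of the compared groups alone. The 2 libraries held the lowest values of most of the 10 genes in their groups, so leaving them out gives no independent result. Lama5 and Lamb2 were called in none of these fits.

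**Figure D4:**
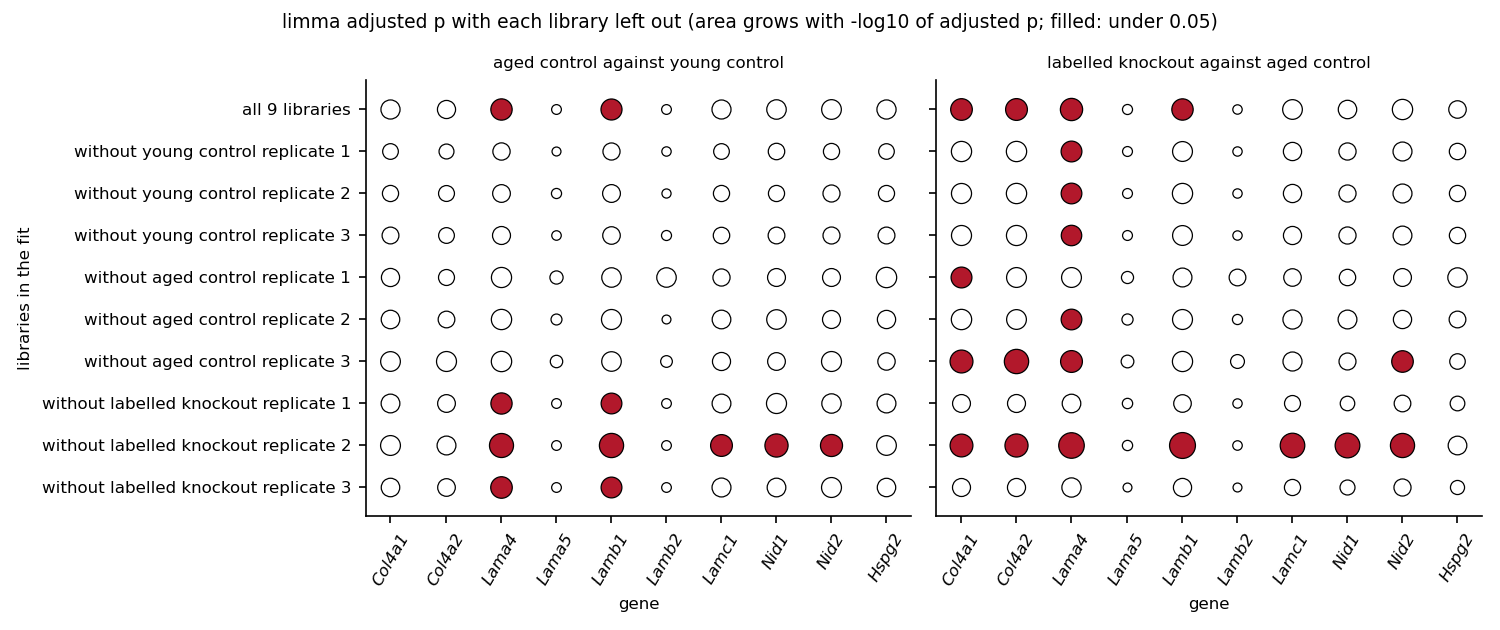
Circles show the limma adjusted p of each gene (horizontal axis) in the fit of all 9 libraries and with each library left out (vertical axis), for the 2 comparisons with the aged controls, with area growing with -log10 of the adjusted p and filled circles under 0.05. Lama4 and Lamb1 lose their calls with age without any 1 of the young or aged controls, and 7 genes are filled on the right without replicate 2 labelled knockout.

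Markers of other cells that make these proteins were measured in the same libraries. The 12 markers of marrow stromal, bone and fat cells summed to 78.9 to 109.9 FPKM in the young controls, 41.4 to 50.2 FPKM in the aged controls and 36.1 to 48.8 FPKM in the libraries labelled knockout. With age, 3 of the 4 of them that were tested fell, Ibsp, Adipoq and Cxcl12. The 7 markers of pericytes and smooth muscle summed to 10.7 to 14.4, 3.33 to 7.27 and 1.53 to 7.84 FPKM, and none of the 2 tested was called. Both sums were lower in aged than in young controls, as the basement membrane genes called with age were, and their part in that result was not tested. In the libraries labelled knockout both sums overlapped those of the aged controls, while Col4a1, Col4a2, Lama4 and Lamb1 lay wholly above them. Single markers of the stromal list went both ways there. Adipoq was called lower. Lepr, Cxcl12, Dcn, Pdgfra, Lum and Bglap were 0.916, 0.770, 0.426, 0.386, 0.344 and 0.10 times the aged control mean, with overlap between groups. Ibsp was 2.24 times and Col1a2 2.08 times that mean with no overlap. Col1a1, Col3a1 and Pdgfrb were 2.09, 2.13 and 1.11 times with overlap. Of these only Adipoq was called, and all but Adipoq, Lepr, Cxcl12 and Ibsp were below the filter. The part of stromal RNA in this comparison was not tested. In the stromal list Col1a1 was at 0.10 to 0.59 FPKM and Dcn at 0.13 to 1.05 FPKM, while Cxcl12 was at 19.67 to 49.15 FPKM and Ibsp at 3.66 to 32.75 FPKM. The 7 sinusoidal markers summed to 870.8 to 924.2 FPKM in the young controls, 1032 to 1235 FPKM in the aged controls and 747.0 to 915.6 FPKM in the libraries labelled knockout. Among the 6 tested, Fcgr2b and Dnase1l3 were called lower in labelled knockout against aged control (limma adjusted p = 0.0352 and 0.0415), and none was called with age. Much of the shift in the sinusoidal sum was Fcgr2b, which averaged 116.7, 304.0 and 90.2 FPKM in the 3 groups. Stab1, Flt4 and Dnase1l3 also had higher means in aged than in young controls, and Stab2, Mrc1 and Lyve1 lower ones. The 9 arterial markers summed to 378.2 to 450.2, 647.6 to 735.6 and 366.4 to 665.7 FPKM, most of it Ly6a. Of the endothelial markers Cldn5, a tight junction protein, was called higher with age and lower under the knockout label, and Erg, an endothelial transcription factor, was called lower with age. The 10 endothelial markers summed to 2082 to 2107, 2329 to 2446 and 1995 to 2149 FPKM, and the 8 leukocyte markers to 20.5 to 141.1, 110.2 to 144.9 and 21.6 to 105.7 FPKM. The endothelial sum follows Cldn5, which averaged 483.6, 810.3 and 476.1 FPKM in the 3 groups. Cdh5, Pecam1, Kdr, Tek, Emcn and Erg had lower means in aged than in young controls, and Tie1, Esam and Egfl7 higher ones. In bulk samples fewer cells of a type and less RNA per cell cannot be told apart, and the part of these shifts was not tested.

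Of 22 further basement membrane genes, 21 had a lower mean in aged than in young controls, all but Ntn4, and 16 had a higher mean in the libraries labelled knockout than in the aged controls. Of the 36202 genes detected in any library, 32.6% had a positive log2 difference with age and 45.9% for labelled knockout against aged control. Most of the 22 were at low levels, with 14 below the filter. All 10 other type IV collagen and laminin chains among them were below the filter, with group means of 0 to 0.66 FPKM. Of the 22, 8 were tested, and the only call was Ntn4, a laminin-related netrin that can disturb laminin networks, which fell from 2.12 ± 0.704 to 0.440 ± 0.121 FPKM in the libraries labelled knockout (SD, n = 3, limma adjusted p = 0.0136). With age 7 of the 8 tested differences were negative, and for labelled knockout against aged control 5 were positive. Of all tested genes 44.0% and 50.4% had positive differences in these 2 comparisons. The median log2 difference of the 8 was -0.11 with age and 0.19 for labelled knockout against aged control, beside -0.05 and 0.00 over all tested genes. Npnt, nephronectin, an integrin ligand, was wholly lower in the aged controls (26.0 ± 3.41 against 45.0 ± 4.69 FPKM, SD, n = 3) but did not pass (limma adjusted p = 0.0633). Col15a1, below the filter and so not tested, read 1.88, 0.80 and 1.22 FPKM in young, 0.06, 0.16 and 0.28 FPKM in aged control and 1.16, 0.50 and 1.89 FPKM in labelled knockout libraries, with the aged controls lowest. Agrn and Col18a1, heparan sulfate proteoglycans like perlecan, averaged 4.81 ± 2.29 and 6.10 ± 4.14 FPKM among aged controls and 6.79 ± 0.920 and 8.99 ± 3.29 FPKM in the libraries labelled knockout (limma adjusted p = 0.287 and 0.351).

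Of 24 genes for folding, modifying and crosslinking collagen, 19 were tested. With age 2 fell: Colgalt2, a collagen galactosyltransferase, from 4.60 ± 0.430 to 1.64 ± 0.596 FPKM (SD, n = 3, limma adjusted p = 0.0259), and Mia2, which helps load large cargo for export from the endoplasmic reticulum, from 5.74 ± 0.0874 to 3.87 ± 0.367 FPKM (limma adjusted p = 0.0418). In the libraries labelled knockout 2 rose: Colgalt2, to 5.35 ± 1.12 FPKM (limma adjusted p = 0.00669), and P4ha1, a prolyl hydroxylase subunit that stabilises collagen helices, from 12.99 ± 1.28 to 22.8 ± 3.31 FPKM (limma adjusted p = 0.0101). The collagen chaperone Serpinh1, at 229.6, 237.1 and 290.5 FPKM in the 3 groups, and Pxdn, the peroxidase that crosslinks type IV collagen, at 29.2, 19.6 and 30.7 FPKM, passed in no comparison. The medians of the 19 were 0.00 with age and 0.08 for labelled knockout against aged control, beside -0.05 and 0.00 over all tested genes. Of 12 receptors for laminin and type IV collagen, 8 were tested and none was called. Over all tested genes 2.8% were called lower and 1.2% higher with age, and 2.01% lower and 2.78% higher for labelled knockout against aged control. At such shares none of 8 is no result about the receptors. The receptor medians were -0.32 and 0.23, and Itgb1, the beta subunit of most laminin- and collagen-binding integrins, stood at 203.0 ± 5.93, 154.5 ± 15.5 and 199.8 ± 15.4 FPKM (limma adjusted p = 0.0570 with age and 0.0644 for labelled knockout against aged control).

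Likeness of pattern was measured as the root mean square difference between 2 genes over the 9 libraries, each centred on its own mean of log2(FPKM + 1), so that 0 is an identical pattern. Lamb1 was the gene nearest to Lama4 among all tested, at 0.105. The median was 0.706 over 10396 tested genes, which leave out the 10 genes and genes with predicted names. The nearest genes outside the 10 were taken from the same 10396. Outside the 10 genes the nearest to Lama4 were Fstl1, Ccdc85a, Pcdh17, Cd34 and Colgalt2, at 0.186 to 0.215. The nearest to Col4a1 was Igfbp3, an insulin-like growth factor binding protein, at 0.0954, then Emp1, Cd34, Arc and Frat2 at 0.264 to 0.314, with Col4a2 at 0.231. Igfbp3 stood at 64.3 ± 6.0, 27.7 ± 12.3 and 81.9 ± 26.2 FPKM in the 3 groups. The nearest to Col4a2 were Cd34, Tnfrsf12a, Slc25a25, Gjc1 and Lmna, at 0.205 to 0.251. Lama5 and Lamb2 were at 0.638 and 0.698 from Lama4, at ranks 3276 and 5358 in nearness among the 11796 tested genes. These values describe the same 9 libraries and share their depth and scaling.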

How the data were processed

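The authors deposited FPKM values rounded to 2 decimals for 52183 genes, 1 column per library. The tools named are STAR, edgeR and FastQC 0.11.5, on GRCm38 and mm10, per the submitters' processing notes. For gene lengths, counting rules and strand setting nothing is given in the sources used here. Positions and exon lengths come from GENCODE M21, which matched all 52183 identifiers. Depth was recovered from genes of 60 to 400 bases, where 99.5% to 99.8% of low values per library were whole multiples of 1 fragment within 0.1. It is approximate.

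Values were tested as log2(FPKM + 1) in R 4.3.3 with limma 3.58.1, fitting the 3 group means over all 9 libraries, eBayes with a trend, over the 11796 genes averaging 1 FPKM or more, with Benjamini-Hochberg adjustment and a threshold of 0.05. Intervals are unadjusted. Ratios were tested with SciPy 1.17.1. Fits were tested on simulated data. Alternatives were other pseudocounts, filters, scalings and weights, a robust eBayes, a replicate block, removal of length and GC trends, voom, and each library left out. The genes and lists were chosen with earlier results of these data known. All 10 genes are given, from each list the called genes (up to 4 per comparison), and the 5 nearest genes to Col4a1, Col4a2 and Lama4. The single markers and the uncalled genes of the lists were named after their values were seen. Figures were drawn with matplotlib 3.10.9.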

Additional observations from a re-analysis of the deposited data

How the results depend on the processing

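Of the 10 basement membrane genes, limma called 2 in aged against young controls, 4 in labelled knockout against aged control and none in labelled knockout against young. With each library left out the number called ran from 0 to 5 in the first comparison, from 0 to 7 in the second and stayed at 0 in the last. In the first comparison it was 1 with a pseudocount of 5, 1 with a mean of at least 5 FPKM (Nid2, as this removes Lama4 and Lamb1), 0 with no filter, 5 in the fit of the compared groups alone, 8 with array weights, and 6 with aged control 1 and labelled knockout 2 left out together, chosen after seeing the data. In the second it was 0 with no filter, 0 in the fit of the compared groups alone, 8 with array weights and 8 with those 2 libraries left out. It was 3 with a pseudocount of 5, which lost Lamb1, and 3 with a robust eBayes, which lost Col4a1. With a mean of at least 5 FPKM it was 4 (Col4a1, Col4a2, Lamc1 and Nid2). A pseudocount of 0.1 gave 5, adding Nid2, and voom 6, adding Lamc1 and Nid2. In the last it was 1 with array weights (Col4a2). With the replicate number as a block 3, 5 and 0 were called. Deviations from the group mean correlated at -0.129 to 0.124 between same-numbered libraries of different groups. With 3 libraries a group this cannot decide whether the numbers pair them. No called gene changed direction in any setting run. The cause of these changes was not tested. Over all tested genes, where 471, 565 and 25 were called, 39, 146 and 15 were called with no filter, 2320, 1854 and 621 with array weights, and 716, 149 and 31 in fits of the compared groups alone. The block gave 183, 400 and 23, a mean of at least 5 FPKM 555, 499 and 12, and the 2 libraries left out together 1287, 1194 and 26. With 1 library left out the counts ran from 5 to 1039, from 197 to 1159 and from 11 to 31.

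The log2 ratios shrank with a pseudocount of 1 in both genes: Lama4 to Lama5 to -1.29 with age and 1.25 for labelled knockout against aged control, and Lamb1 to Lamb2 to -1.42 and 1.21. With each library left out they ran from -1.89 to -1.64 and from 1.495 to 2.02 for Lama4 to Lama5, and from -2.58 to -2.33 and from 1.86 to 2.62 for Lamb1 to Lamb2. Depth limits Lamb1, Nid2 and Lama4 the most, with 73, 220 and 254 fragments in their lowest libraries.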
